A study of Homo sapiens with 3 samples.

Results

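The NF-kB subunits, their inhibitors, and the cytokine, chemokine and survival genes that NF-kB is known to switch on were followed across 3 lines of HT1080, an established human fibrosarcoma cell line. The set holds 39 genes, named by symbol. Where the array's annotation gave several probe sets that symbol and no other, the brightest stood for the gene, which left 36 of the 39 genes, out of 19775 named in all. BCL3 had only probe sets that carry another symbol as well, and no probe set listed here named BIRC3 or CSF2.

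The Zeo line was mock-transfected. The RECK line permanently carried a RECK vector, RECK being a glycoprotein on the cell membrane that restrains matrix metalloproteinases, and the RECK/4NQ line a vector for RECK with 4 N-glycosylated asparagines changed to glutamine. All lines were kept in 50 µg/mL Zeocin, the selection drug, with 10% fetal calf serum, and whether each is a clone or a pool is not in the labels. Each line was measured on 1 array, so there is no replicate error, no test and no p-value: each comparison below sets 1 array against another, and differences between lines of other origin cannot be told apart from those that go with the transfected gene.

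NF-kB is a family of dimeric transcription factors built from RELA, RELB, REL and the products of NFKB1 and NFKB2. In resting cells inhibitory IkB proteins hold the dimers in the cytoplasm. Cytokines such as TNF and interleukin-1 activate a kinase complex that marks the inhibitors for destruction, and the freed dimers then bind kB motifs in the promoters of chemokine, adhesion and survival genes, and of their own inhibitors, which closes a feedback loop. RELB and NFKB2 belong to a slower branch that receptors such as the lymphotoxin receptor switch on.

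Values are MAS5 signals, an intensity per probe set on a linear scale. The 40th percentile of all signals, 12.2, served as a floor, and weaker signals were raised to it, and a fold against such a signal is given as "at least". A gene was called higher or lower where signals differed at least 2-fold with at least 1 of them above the floor. Of the 36 genes, 26 reached the floor on each array and 4 (CSF3, CXCL5, CXCL6 and CCL20) below it on all. Over the 14289 genes whose mean level reached the floor, the median log2 ratio of RECK over Zeo was -0.20, that of RECK/4NQ over Zeo -0.12 and that of RECK over RECK/4NQ -0.06, so a small decrease on the transfected arrays is what the typical gene showed. The targeted gene RECK read 264 in Zeo against 387 in RECK and 442 in RECK/4NQ, and whether its probe set detects the transfected cDNA is not known here. Of 8 mesenchymal markers, VIM lay between 10307 and 10704 and FAP was below the floor on all arrays. PDGFRB, at 22.9, 67.3 and 12.2 (order Zeo, RECK, RECK/4NQ), was called higher in RECK than in both other lines. COL1A2 was called lower in RECK/4NQ than in Zeo, and S100A4 higher in RECK than in RECK/4NQ. COL1A1, FN1 and THY1 were not past 2-fold in any comparison. Of 7 epithelial markers, only the keratins KRT18 (9895, 7371 and 8807) and KRT8 (1306, 1659 and 1039) were bright. EPCAM, KRT5 and KRT19 were below the floor on all arrays. CDH1 (0.946, 7.75 and 15.6) and KRT14 (6.75, 19.8 and 16.7) lay below or near it. Of 7 leukocyte markers measured, 6 reached the floor in Zeo against 3 in RECK and 4 in RECK/4NQ, with summed signals of 312, 296 and 339. PTPRC, the defining leukocyte antigen, was at 17.8, 11.1 and 9.12, and CD14 was below the floor on all arrays. ITGAM, of myeloid cells, was at 32.6, 12.1 and 42.7, at least 2.66-fold lower in RECK than in Zeo and at least 3.49-fold lower than in RECK/4NQ, and CSF1R, the macrophage growth factor receptor, at 77.2, 152 and 151. CD3E was at 48.7, 26.6 and 34.3, CD79A at 121, 86.2 and 96.2 and LYZ at 12.6, 2.65 and 2.47. The part of such markers in the differences below was not tested.

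In the RECK line, 5 of the 36 genes were at least 2-fold lower than in Zeo, namely RELB, NFKBIE, CXCL8, CXCL3 and CCL5, and 2 were higher, IL32 and CCL2. The 7 together are 19.4% of the 36, where 10.7% of all genes passed the same rule (4.03% higher and 6.71% lower). In the RECK/4NQ line only TNF was above Zeo and only IL15 below, 5.56% of the 36 against 9.96% of all genes (2.82% higher and 7.14% lower). Between RECK and RECK/4NQ, BIRC2, IL32, CXCL2 and CCL2 were higher in RECK and TNF, CXCL3 and CCL5 lower, again 19.4% of the 36, against 10.3% of all genes (5.77% higher and 4.48% lower). After median centring of the arrays the counts for RECK over Zeo were 3 higher and 3 lower (5.39% and 4.55% of all genes), and after quantile normalisation 4 and 4 (5.4% and 4.64% of all genes); for RECK/4NQ over Zeo both scalings gave 2 higher and 1 lower (4.46% and 4.31% of all genes after centring, 3.93% and 4.64% after quantile normalisation). These are counts on a few genes with 1 array per line, and the comparisons share arrays. In RNA pooled from a whole culture, fewer cells expressing a gene and less RNA per cell cannot be told apart.

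**Figure D1:**
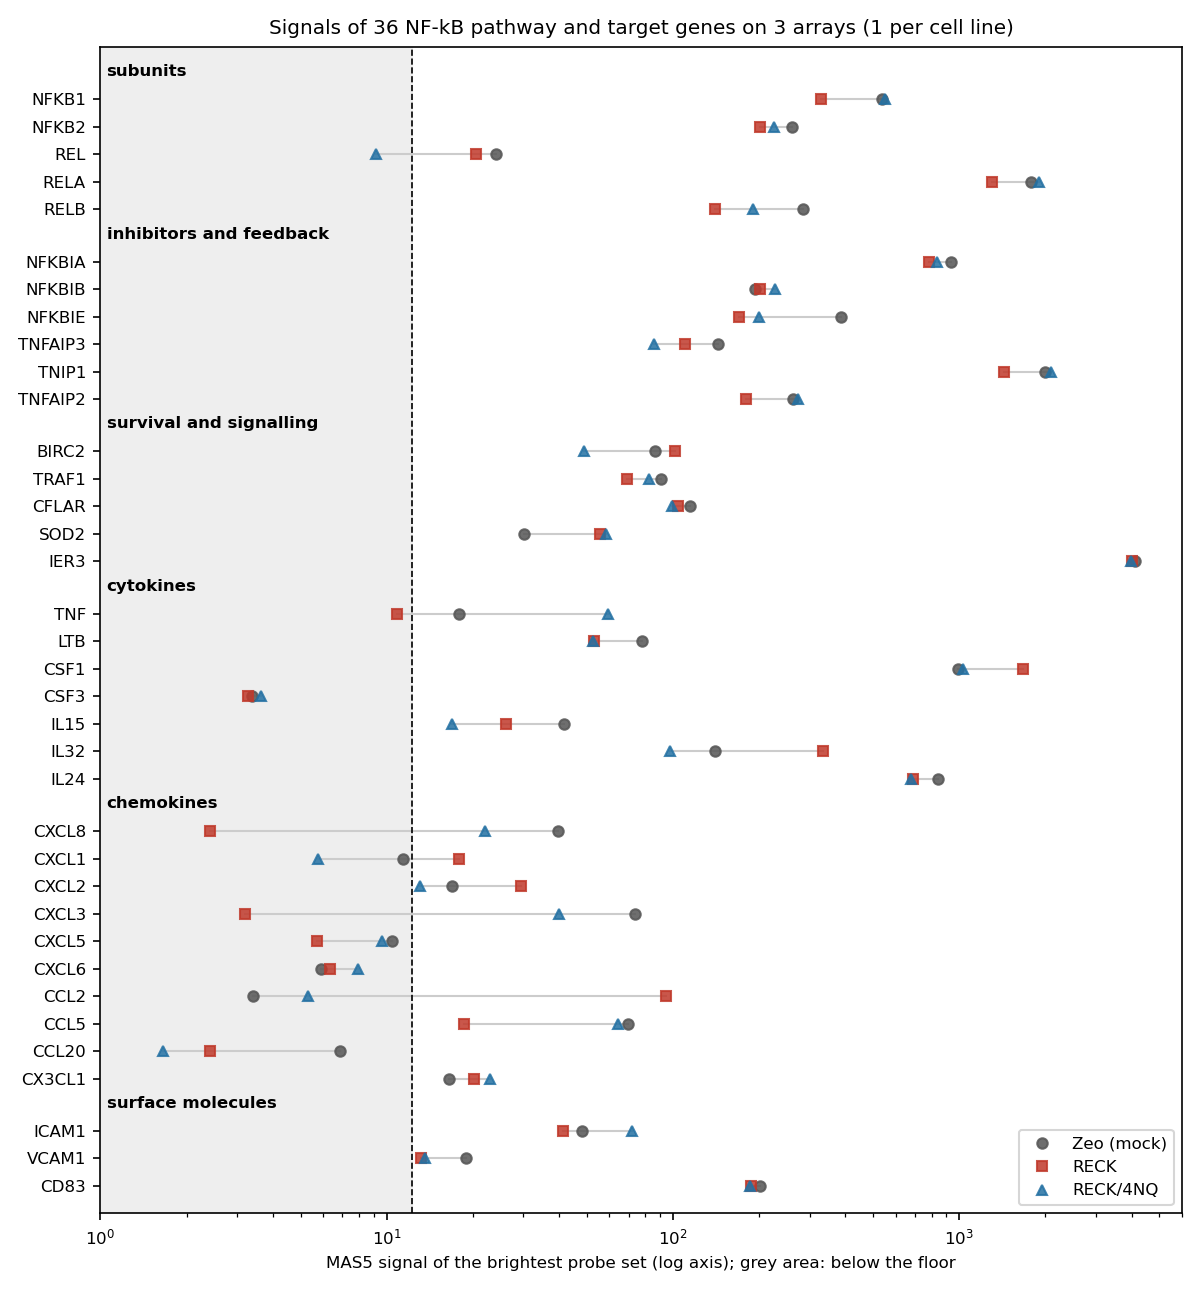
MAS5 signal (log axis) of the brightest probe set of 36 genes on the Zeo (grey circle), RECK (red square) and RECK/4NQ (blue triangle) arrays, 1 array per line, grouped by role; a grey line joins the 3 signals of a gene, and the shaded area lies below the floor of 12.2. CCL2 is above the floor on the RECK array only, CXCL8 and CXCL3 are below it on that array only, and the inhibitor gene NFKBIA and the survival gene IER3 hardly move.

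Over the 30 genes of the set whose mean level reached the floor, the median log2 ratio of RECK over Zeo was -0.38, which is -0.18 relative to all genes, and 20 of the 30 lay below the median of all genes. For RECK/4NQ over Zeo the median was -0.18, or -0.06 relative to all genes, with 18 of 30 below, and for RECK over RECK/4NQ it was -0.13, or -0.07 relative to all genes, with 17 of 30 below. The medians of the set were therefore not far from those of all genes, but a median does not show how far single genes moved in either direction. As a scale, the robust spread of ratios among the 1000 genes nearest in level was used. For RECK over Zeo, 20 of the 30 lay within 1 spread of the median of those neighbours, and only IL32 of the 30 lay over 3 spreads away. CCL2, called higher in RECK, had a mean level below the floor and is not among the 30.

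Among the 5 DNA-binding subunits, RELB had the largest ratio between RECK and Zeo. Its signal was 283 in Zeo against 140.0 in RECK and 190.1 in RECK/4NQ, so that it was highest in the mock line and lowest in RECK. This was 2.03-fold lower in RECK than in Zeo and 1.49-fold lower in RECK/4NQ. Relative to all genes the log2 ratio of RECK over Zeo was -0.82, so RELB was no longer past 2-fold once the arrays were centred on their medians.

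NFKB1 encodes the p105 precursor of p50, the partner of RELA in the classical dimer. Its signal was 537 in Zeo against 328 in RECK and 549 in RECK/4NQ. The RECK array stood below the others by 1.64-fold and 1.67-fold, while Zeo and RECK/4NQ differed 1.02-fold, and no difference passed 2-fold. RELA, the main activating subunit, was at 1778 in Zeo against 1300.5 in RECK and 1903 in RECK/4NQ, again lowest in RECK, by 1.37-fold and 1.46-fold. Its other probe set read 547, 277 and 509, a log2 ratio of -0.98 for RECK over Zeo against -0.45 for the brightest.

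NFKB2, the p100 precursor of p52, was at 261 in Zeo against 202 in RECK and 226 in RECK/4NQ, and its other probe sets were also lower in RECK, with log2 ratios of -0.58 and -0.49. REL, best known in lymphocytes, was close to the floor at 24.1, 20.4 and 9.14, and its 5 probe sets gave ratios in either direction. All 5 subunits lay below the median of all genes for RECK over Zeo, with a median log2 ratio of -0.45, or -0.26 relative to all genes. For RECK/4NQ over Zeo 3 of 5 lay below, with a median of -0.20, or -0.08 relative to all genes. Of these 5 genes 1 was called for RECK over Zeo and none for RECK/4NQ over Zeo, where 10.7% and 9.96% of all genes were.

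Among the inhibitors, NFKBIE, which encodes IkB epsilon, had a signal of 386 in Zeo against 171 in RECK and 200.02 in RECK/4NQ. Both transfected lines were below the mock line, 2.26-fold in RECK and 1.93-fold in RECK/4NQ, and they differed 1.17-fold from each other. NFKBIE has 1 probe set, so no other measurement of it exists on these arrays. With the median of all genes subtracted its log2 ratio of RECK over Zeo was -0.98, just short of 2-fold.

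The classical feedback inhibitor NFKBIA (IkB alpha), a direct target that responds within minutes to NF-kB activity, was at 932 in Zeo against 785 in RECK and 837 in RECK/4NQ. These signals lay within 1.19-fold of each other, though a dim probe set of NFKBIA, below the floor in Zeo, read 6.34, 17.0 and 15.5. NFKBIB (IkB beta) was at 193, 201 and 227, within 1.17-fold, though a dim probe set of it read 13.0, 14.7 and 36.2. By their brightest probe sets the inhibitor genes therefore did not move alike. NFKBIE was lower in both transfected lines by more than its level neighbours, at -2.38 spreads in each, while NFKBIA was at -0.08 and -0.37 spreads.

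TNFAIP3 encodes A20, an enzyme that edits ubiquitin chains and ends TNF signalling, and TNIP1 encodes a protein that binds it. TNFAIP3 was at 144 in Zeo against 110.1 in RECK and 86.1 in RECK/4NQ, and its other probe set at 86.1, 57.4 and 57.3, both highest in Zeo. TNIP1 was at 1999, 1434 and 2084, and TNFAIP2, a TNF-inducible gene, at 263, 181 and 273. By their brightest probe sets TNIP1 and TNFAIP2 shared the order of NFKB1 and RELA, with RECK lowest and the other lines within 1.04-fold of each other. None of them passed 2-fold. The other probe set of TNIP1 read 71.5, 54.7 and 58.4, also lowest in RECK but with RECK/4NQ below Zeo. The other one of TNFAIP2, near the floor, read 7.88, 12.6 and 19.0, lowest in Zeo. Of the 6 inhibitor and feedback genes measured, 5 lay below the median of all genes for RECK over Zeo (median -0.43, or -0.24 relative to all genes) and 3 for RECK/4NQ over Zeo (-0.05, or 0.07 relative to all genes).

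**Figure D2:**
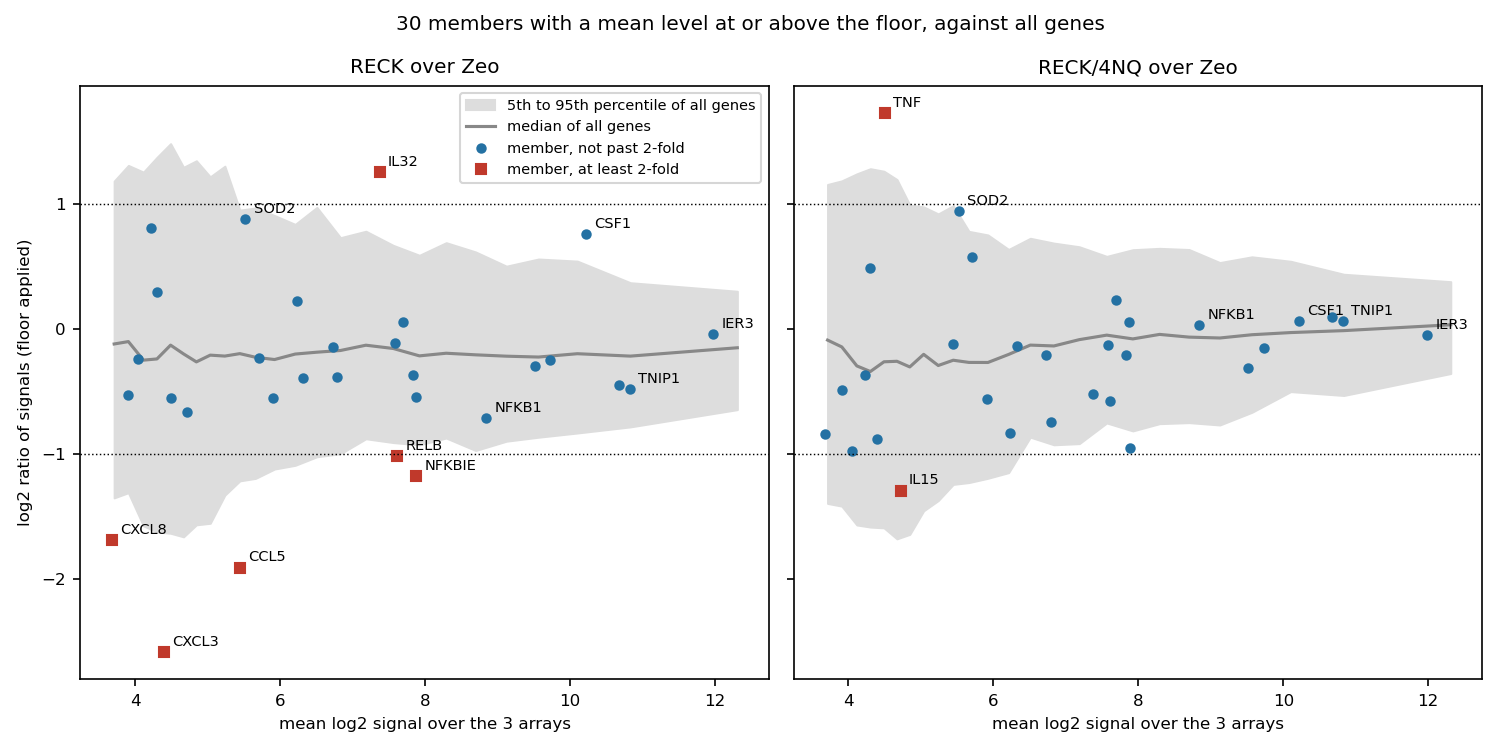
Log2 ratio of signals, with the floor applied, against the mean log2 signal over the 3 arrays for RECK over Zeo (left) and RECK/4NQ over Zeo (right); symbols are the 30 genes whose mean level reached the floor, red squares being at least 2-fold, the grey band spans the 5th to 95th percentile of all genes of like level and the grey line their median. For RECK over Zeo, RELB, NFKBIE, CXCL8, CXCL3 and CCL5 lie below the band and CSF1 and IL32 above it, and for RECK/4NQ over Zeo NFKBIE lies below it and TNF above it. CCL2, whose mean level is below the floor, is not shown.

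The chemokines, small secreted proteins that attract leukocytes, numbered 10 in the set, of which 3 were below the floor everywhere. For RECK over Zeo 3 were lower and 1 higher, for RECK over RECK/4NQ 2 were lower and 2 higher, and for RECK/4NQ over Zeo none was past 2-fold, where 10.7%, 10.3% and 9.96% of all genes were. CCL2, the monocyte attractant also known as MCP-1, had a signal of 3.42 in Zeo against 94.6 in RECK and 5.32 in RECK/4NQ. It was above the floor in the RECK line only, at least 7.73-fold higher there than in either other line. CCL2 has 1 probe set, whose type may hybridise to more than 1 transcript, and its signal of 94.6 did not pass a floor set at the 80th percentile.

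CCL5 (RANTES), an attractant of T cells and monocytes, was at 69.6 in Zeo against 18.5 in RECK and 64.2 in RECK/4NQ. The RECK array stood apart, 3.75-fold below Zeo and 3.46-fold below RECK/4NQ, while those differed 1.08-fold. Its other probe sets read 44.2, 8.21 and 16.6, and 20.02, 10.3 and 19.0, so RECK was lowest in all 3. They differed over RECK/4NQ, which lay close to Zeo by 2 probe sets and lower by the third. When the probe sets were averaged CCL5 was not past 2-fold between RECK and RECK/4NQ. Of the 26 genes that reached the floor on each array, CCL5 alone stood apart on the low side in RECK, at least 2-fold from both other arrays with those within 1.5-fold of each other, and IL32 alone on the high side. Among 12411 such genes 1.74% stood apart low and 0.91% high in RECK.

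CXCL3 and CXCL8 are neutrophil attractants that act through the receptor CXCR2. CXCL3 had a signal of 73.4 in Zeo against 3.19 in RECK and 39.8 in RECK/4NQ. By its only probe set the log2 ratio of RECK over Zeo was at most -2.58, and RECK was at least 3.26-fold below RECK/4NQ. CXCL8 (interleukin-8) was at 39.5, 2.40 and 22.1, at least 3.23-fold lower in RECK than in Zeo, while its other probe set was below the floor throughout. Both were lowest in RECK and intermediate in RECK/4NQ, and neither CXCL8 against Zeo nor CXCL3 against RECK/4NQ was past 2-fold once the floor was set at the 60th percentile.

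The order differed for their relatives. CXCL2 was at 16.9 in Zeo against 29.6 in RECK and 13.0 in RECK/4NQ, 2.27-fold higher in RECK than in RECK/4NQ, but another of its probe sets read 12.8, 10.0 and 25.9, highest in RECK/4NQ. CXCL1 was at 11.4, 17.8 and 5.77, above the floor in RECK only and by 1.46-fold at the least. CX3CL1, a membrane-bound chemokine, was at 16.4, 20.2 and 23.0. All of these signals lie close to the floor, where MAS5 ratios scatter most.

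CXCL8, CXCL6, CXCL1, CXCL5, CXCL3 and CXCL2 lie in 1 cluster on chromosome 4, and the stretch upstream of their starts shows how alike some of them are. The kB consensus of 10 letters was searched on both strands in the 250 bases upstream of each start in RefSeq's promoter table (GRCh38.p14). Of the 39 genes 30 were in the table, and 19 of these (63.3%) held a match in at least 1 of their windows, against 11.8% of all 27305 genes there. By window this was 21 of 48 (43.8%), against 9.96% of 35116. The genes were listed as NF-kB targets to begin with, so this describes the list. The stretches below are those of the chemokines with a match and of IL32, chosen to show the match beside members whose signals are described here. Capitals mark the match. The positions are chr4:73869289-73869348 on the plus strand for CXCL1, chr4:74099239-74099298 on the minus strand for CXCL2, chr4:74038734-74038793 on the minus strand for CXCL3, chr4:73998734-73998793 on the minus strand for CXCL5, chr4:73836563-73836622 on the plus strand for CXCL6, chr2:227813738-227813797 on the plus strand for CCL20 and chr16:3065279-3065338 on the plus strand for IL32.
CXCL1: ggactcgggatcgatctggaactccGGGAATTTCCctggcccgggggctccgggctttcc
CXCL2: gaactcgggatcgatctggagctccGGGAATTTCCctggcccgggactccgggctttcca
CXCL3: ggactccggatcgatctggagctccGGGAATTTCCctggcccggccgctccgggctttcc
CXCL5: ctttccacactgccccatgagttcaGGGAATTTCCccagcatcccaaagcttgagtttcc
CXCL6: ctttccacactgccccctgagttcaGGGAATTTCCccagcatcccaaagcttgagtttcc
CCL20: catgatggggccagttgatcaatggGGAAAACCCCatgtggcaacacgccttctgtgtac
IL32: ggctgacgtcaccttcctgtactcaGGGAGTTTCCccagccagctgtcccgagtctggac

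CXCL1 and CXCL3 differed at 4 of these 60 bases, and the same 10 bases matched in CXCL1, CXCL2, CXCL3, CXCL5 and CXCL6. CXCL3 went from 73.4 to 3.19 between Zeo and RECK, while neither CXCL1, below the floor in Zeo, nor CXCL2 was called between these lines. CXCL5 and CXCL6 differed at 1 of 60 bases and were below the floor on all arrays. CXCL8, RELA, TNF, ICAM1, BIRC2, SOD2, IL24, TNFAIP2, TRAF1, BCL3 and CSF2 had no match, which says only that these letters are not in the windows searched. RELB, NFKBIE, IER3, CSF1, CSF3, IL15, CCL2, CCL5 and CX3CL1 had no entry in the promoter table and were not searched.

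The cytokines of the set moved in different directions. IL32, a cytokine known to be produced by NK cells, T cells and epithelial cells, was at 140 in Zeo against 334 in RECK and 97.5 in RECK/4NQ. It was highest in RECK, 2.39-fold above Zeo and 3.43-fold above RECK/4NQ, and lay 3.26 spreads above genes of like level in the first comparison and 3.90 in the other. The difference was past 2-fold in all 7 alternative calculations that gave it a value. Several of these could not change its ratios. All its signals lie above the raised floors, it has no other probe set to average, and a 1.5-fold threshold alters no ratio. Only the other scalings and the level trend could. Across the alternatives its log2 ratio lay between 1.26 and 1.44 for RECK over Zeo and between 1.73 and 1.86 for RECK over RECK/4NQ. IL32 has 1 probe set, of the same type as that of CCL2.

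CSF1, the growth factor of macrophages, had a signal of 987 in Zeo against 1671 in RECK and 1030.4 in RECK/4NQ. It was 1.69-fold higher in RECK than in Zeo and 1.62-fold higher than in RECK/4NQ, short of 2-fold, at 2.81 and 2.47 spreads from genes of like level. All 4 of its probe sets were higher in RECK than in Zeo, with log2 ratios between 0.57 and 0.76. TNF itself was at 17.9 in Zeo against 10.9 in RECK and 59.4 in RECK/4NQ. It was 3.31-fold above Zeo in RECK/4NQ and at least 4.85-fold higher than in RECK, by its only probe set and from signals near the floor.

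LTB, lymphotoxin beta, whose gene lies next to TNF, was at 77.7, 53.1 and 52.7, while its other probe set read 32.8, 14.8 and 35.01. The 2 probe sets agreed on a lower signal in RECK than in Zeo and differed over RECK/4NQ. IL15, a cytokine that sustains NK and memory T cells, was at 41.5, 26.2 and 16.9, 2.45-fold lower in RECK/4NQ than in Zeo, but its other probe set went from 8.19 in Zeo to 16.3 in RECK/4NQ. IL24, a member of the interleukin-10 family, was at 845, 688 and 679, and CSF3 was between 3.27 and 3.64.

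**Figure D3:**
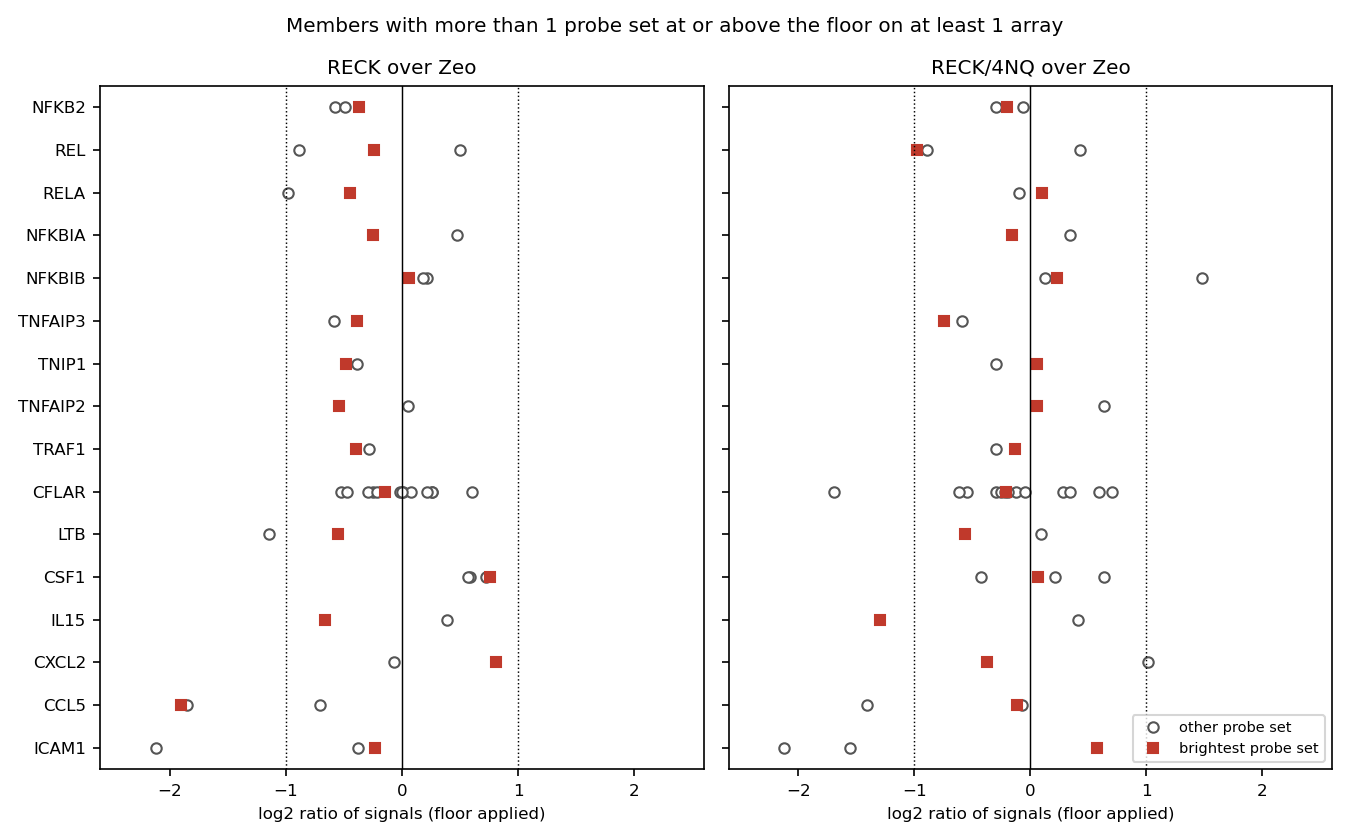
Log2 ratio of signals, with the floor applied, of every probe set that reached the floor on at least 1 array for the 16 genes with more than 1 such probe set, for RECK over Zeo (left) and RECK/4NQ over Zeo (right); red squares are the brightest probe set of a gene and open circles its others, and dotted lines mark 2-fold. All CCL5 and NFKB2 probe sets lie left of 0 and all CSF1 probe sets right of 0 for RECK over Zeo, while CFLAR and ICAM1 probe sets spread widely for RECK/4NQ over Zeo.

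Among the survival genes, BIRC2 (cIAP1), a ubiquitin ligase of the TNF receptor complex, was at 86.6 in Zeo against 101 in RECK and 48.7 in RECK/4NQ. It was lowest in RECK/4NQ, 2.08-fold below RECK and 1.78-fold below Zeo. IER3, an early response gene, was at 4124, 4015 and 3990, within 1.03-fold on all arrays. TRAF1, an adaptor of TNF receptors, was at 90.5, 68.9 and 82.4, and CFLAR (c-FLIP), which blocks caspase-8, at 115, 104 and 99.5, with its 14 probe sets going either way.

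SOD2, the mitochondrial superoxide dismutase and a classical NF-kB target, was at 30.2 in Zeo against 55.4 in RECK and 58.1 in RECK/4NQ. It was 1.84-fold and 1.92-fold above Zeo, and past 2-fold in both transfected lines after median centring, quantile normalisation or subtraction of the level trend. The other 4 SOD2 probe sets carry a further symbol and were not used. Of the 5 survival genes measured 1 lay below the median of all genes for RECK over Zeo, with a median log2 ratio of -0.04, or 0.16 relative to all genes.

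The adhesion molecules ICAM1 and VCAM1 are bound by leukocyte integrins on inflamed endothelium. ICAM1 was at 48.3 in Zeo against 41.2 in RECK and 72.0 in RECK/4NQ by its brightest probe set, but the others read 35.9, 27.6 and 4.45, and 53.4, 8.96 and 8.57. The probe sets opposed each other for RECK/4NQ, with a log2 ratio of 0.58 by the brightest and -1.03 by their mean. VCAM1 was close to the floor at 19.0, 13.2 and 13.6, and CD83, a marker of mature dendritic cells, was at 202, 187 and 185. Across the set, other probe sets measured on both arrays had the direction of the brightest in 17 of 22 cases for RECK over Zeo, 18 of 25 for RECK/4NQ over Zeo and 19 of 26 for RECK over RECK/4NQ. The 5 opposing cases for RECK over Zeo were all in CFLAR.

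Few receptors, adaptors and kinases upstream of NF-kB passed 2-fold. Of all genes, 10.7% did when RECK was set against Zeo, 9.96% when RECK/4NQ was, and 10.3% between the transfected lines. Of 39 such genes with a probe set, 0 were higher and 2 lower in RECK than in Zeo; against Zeo, RECK/4NQ had 0 higher and 1 lower; and 1 was higher and 2 lower in RECK than in RECK/4NQ. MYD88, the adaptor of interleukin-1 and Toll-like receptors, was at 104 in Zeo against 37.9 in RECK and 91.4 in RECK/4NQ. It was lowest in RECK, 2.74-fold below Zeo and 2.41-fold below RECK/4NQ. The other gene lower in RECK than in Zeo was the kinase CHUK (IKK alpha), near the floor at 28.2, 11.6 and 19.1. The median log2 ratio of this list relative to all genes was 0.00 for RECK over Zeo and 0.03 for RECK/4NQ over Zeo. IKBKG, the regulatory subunit of the IkB kinase, was at 508, 494 and 508.

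Of 37 further known NF-kB targets with a probe set, 2 were higher and 3 lower in RECK than in Zeo, 1 higher and 4 lower between RECK/4NQ and Zeo, and 6 higher and 2 lower in RECK than in RECK/4NQ. In that order this is 13.5%, 13.5% and 21.6% of the list, against 10.7%, 9.96% and 10.3% of all genes. The list's median relative to all genes was 0.10 for RECK over Zeo and -0.12 for RECK/4NQ over Zeo, so it did not share the negative median of the set for RECK over Zeo. Its largest ratios were those of IL1B and MMP9. IL1B was at 1583, 260.0 and 2343, lowest in RECK, 6.09-fold below Zeo and 9.01-fold below RECK/4NQ. MMP9 was at 1947, 203 and 2306, 9.60-fold below Zeo and 11.4-fold below RECK/4NQ. The complement gene C3 was at 41.0 in Zeo against 125 in RECK and 110.4 in RECK/4NQ, higher in both transfected lines. LCN2, a secreted iron-scavenging protein, was at 47.5, 104 and 34.6, highest in RECK. IL6 was at 92.9, 54.9 and 41.0, and PTX3, a secreted pattern recognition protein, at 395, 329 and 158, both lowest in RECK/4NQ, 2.27-fold and 2.496-fold below Zeo. The coagulation initiator F3 (137, 165 and 67.5) and the interleukin subunit EBI3 (122, 148 and 62.7) were also lowest in RECK/4NQ.

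Receptors for the ligands of the set were largely dim. Of 20 with a probe set, 3 were below the floor on all arrays, among them CXCR1 and CXCR2, the receptors of CXCL8. For RECK over Zeo 2 were higher and 1 lower, for RECK/4NQ over Zeo 0 were higher and 2 lower, and for RECK over RECK/4NQ 3 were higher and 0 lower. In that order this is 15%, 10% and 15% of the list, against 10.7%, 9.96% and 10.3% of all genes. CSF3R, the receptor of G-CSF, was at 62.8 in Zeo against 15.3 in RECK and 16.7 in RECK/4NQ, 4.10-fold and 3.76-fold below Zeo. IL22RA1, a chain of the IL24 receptor, was at 41.9, 70.6 and 32.2, 2.20-fold higher in RECK than in RECK/4NQ. Of the TNF receptors, TNFRSF1A was at 691, 770.3 and 796, and TNFRSF1B at 24.05, 2.39 and 4.87, above the floor in Zeo only. LTBR, the lymphotoxin receptor, was at 1114, 993 and 1088.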

How the data were processed

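Total RNA of 3 HT1080 lines was hybridised to Affymetrix arrays, 1 per line. The deposited values are intensity values, MAS5 signals per probe set; the submitters' processing notes name MAS5, with its version, scaling target and detection calls not given in the sources used here. The method subtracts a mismatch estimate, so ratios of dim probe sets scatter widely. The number of arrays limits the precision.

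From these signals, used as deposited, log2 ratios were computed with Python 3.11.15 and pandas 2.3.3. Of 54675 probe sets, 62 were controls, 41091 had 1 symbol, 1801 several and 11721 were not listed with a gene; 41037 of those with 1 symbol matched RefSeq's gene table by gene ID and 0 symbols needed an update. A gene took its probe set with the highest mean log2 signal. Signals below 12.2 were raised to that floor before ratios were taken. Spreads are 1.4826 times the median absolute deviation of the 1000 genes nearest in level. All 39 genes of the set are accounted for; of the other lists, genes called in a comparison with a signal of at least 4 times the floor are named, at most 8 per list, and CHUK, IKBKG, TNFRSF1A, TNFRSF1B, LTBR, CXCR1 and CXCR2 were added after their values were seen. The genes and lists were chosen with earlier results of these data known. The stretch upstream of IL32 was added to the planned ones. The alternatives were other floors, scalings, probe set rules and a 1.5-fold threshold. The call rule was run on simulated data with little noise and 4-fold changes planted only in genes above 8 times the floor. CXCL3, CXCL8, CCL2, CCL5 and TNF stay below that level, so the simulation does not bear on their calls.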

Additional observations from a re-analysis of the deposited data

How the results depend on the processing

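Counts of called genes depended most on the floor and the threshold. With the floor at the 80th percentile of signals, fewer genes were above the floor. In RECK against Zeo 1 gene of the set was then higher and 2 lower (0.551% and 0.87% of all genes). For RECK/4NQ against Zeo the counts were 0 and 0 (0.263% and 0.47% of all genes). Between RECK and RECK/4NQ 1 was higher and 0 lower in RECK (0.845% and 0.93% of all genes). The median for RECK over RECK/4NQ relative to all genes became 0.017. With the floor at the 60th percentile, 0 were lower in RECK/4NQ than in Zeo (2.31% of all genes). At 1.5-fold, 5 were higher in RECK than in Zeo, 2 higher and 7 lower between RECK/4NQ and Zeo, and 7 higher and 7 lower in RECK than in RECK/4NQ. NFKB1 (1.64-fold) and IL15 (1.58-fold) then joined the genes already called lower in RECK than in Zeo. The lower threshold also calls more of all genes, a share not given here, so these counts are no result about the set. Subtracting the level trend, like quantile normalisation, gave 4 higher in RECK than in Zeo with 2 higher in RECK/4NQ, and median centring 3 lower in RECK and 2 higher in RECK/4NQ. For the level trend the share of all genes is not given here, so its counts are no result about the set. Leaving out probe sets that can match several transcripts left 25 genes, with 0 higher in RECK than in Zeo, 0 lower in RECK/4NQ than in Zeo and 2 higher in RECK than in RECK/4NQ. IL32, CCL2 and IL15, which made up the first 2 of these counts, have only such probe sets. They were dropped and not measured again, so the counts of 0 say nothing about their calls. The share of all genes under this rule is not given here. ICAM1 for RECK/4NQ over Zeo turned to -1.03 when probe sets were averaged; the cause was not tested. The other medians stayed negative relative to all genes under each alternative run. No paired analysis was possible because each line has 1 array.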
